A study of Mus musculus with 4 samples.

Results

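The kinesin motor family was examined in mouse embryonic stem cells (ESCs) of lines labelled WT and Rest-/- for the gene of REST, a zinc-finger repressor of neuronal genes. Its members were taken as the rows of the gene count table whose symbol starts with Kif followed by a digit or by c, which gave 38 of 26301 genes. The RNA-seq data comprise 4 libraries, with 2 biological replicates from the WT line N6 and 2 from the Rest-/- line N8. Each genotype is therefore represented by 1 cell line, so that genotype and line cannot be told apart. Both lines were grown in serum medium with leukemia inhibitory factor on irradiated embryonic fibroblasts, which were depleted by passage on gelatin before RNA was taken. By their known roles, 13 of the kinesins were grouped as mitotic, 17 as transport and 8 as other (ciliary, signalling or centriolar).

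Kinesins are motor proteins that hydrolyse ATP to move along microtubules or to take their ends apart. Mitotic kinesins build and shorten the spindle, carry chromosomes and organise the midzone before cell division, and their transcripts typically accumulate late in the cell cycle. Transport kinesins carry vesicles, mitochondria and protein complexes, and several of them, among them Kif1a, Kif5a, Kif5c, Kif21a and Kif21b, are best known from neurons.

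The promoters of the family were searched for 2 motifs of cell cycle genes. RefSeq promoter sequences of GRCm38.p6, spanning 250 bases before to 50 bases after a start site, were matched for 29 of the 38 genes. The motifs, searched on both strands, were the cell cycle genes homology region (CHR, TTTGAA or its reverse TTCAAA), which binds complexes that time late cell cycle genes, and the CCAAT box (CCAAT or its reverse ATTGG), which binds NF-Y. The 2 motifs can overlap by at most 1 base. A CHR was found in 8 of 12 mitotic promoters (66.7%) and in 1 of 13 transport promoters (7.69%), against 17.9% of all 32851 promoters of this length. A CCAAT box was found in 7 of 12 mitotic promoters and 4 of 13 transport promoters, against 37.4% of all promoters. Both motifs occurred together in 6 of 12 mitotic promoters and in 0 transport promoters, against 6.95% of all. Of the 8 promoters of the kinesins grouped as other, 2 held a CHR, 4 a CCAAT box and 2 both, so the pair was not confined to the mitotic class. These letter matches are a description and were not tested. The promoters of Kif11 and Kif22 are shown because they hold both motifs close to the start site, and that of Kif5c because it is a transport promoter with neither. Capitals mark the CHR and CCAAT box matches, and each sequence reads in the direction of its gene.
Kif11 promoter (chr19:37376132-37376431, plus strand): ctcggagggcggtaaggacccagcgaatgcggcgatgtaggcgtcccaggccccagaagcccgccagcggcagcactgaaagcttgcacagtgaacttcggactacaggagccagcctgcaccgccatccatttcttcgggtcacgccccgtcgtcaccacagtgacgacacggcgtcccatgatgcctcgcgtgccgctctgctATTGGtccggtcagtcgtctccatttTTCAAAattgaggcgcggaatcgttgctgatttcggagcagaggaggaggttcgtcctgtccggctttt
Kif22 promoter (chr7:127042371-127042670, minus strand): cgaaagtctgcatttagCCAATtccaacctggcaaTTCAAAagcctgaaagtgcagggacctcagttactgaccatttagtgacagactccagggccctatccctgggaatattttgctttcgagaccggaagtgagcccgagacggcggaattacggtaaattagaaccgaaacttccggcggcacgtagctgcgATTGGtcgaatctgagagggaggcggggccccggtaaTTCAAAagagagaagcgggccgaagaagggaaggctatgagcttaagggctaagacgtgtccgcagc
Kif5c promoter (chr2:49619036-49619335, plus strand): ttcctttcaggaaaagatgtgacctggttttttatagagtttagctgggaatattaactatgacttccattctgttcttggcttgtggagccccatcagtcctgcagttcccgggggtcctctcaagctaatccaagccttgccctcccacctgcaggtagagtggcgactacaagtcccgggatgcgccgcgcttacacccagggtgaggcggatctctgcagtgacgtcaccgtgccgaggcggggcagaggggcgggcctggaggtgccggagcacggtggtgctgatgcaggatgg
In Kif11 the CCAAT box begins at position -45 and the CHR at position -19 from the start site. In Kif22 the pair nearest the start site begins at -54 and -17, and a further pair begins at -233 and -215. Entries were missing for Kif20a, Kifc5c, Kif19a, Kif13b, Kif21b, Kif5a, Kif5b, Kifc2 and Kifc3.

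The total count on genes ran from 22293966 in Rest-/- replicate 2 to 30953863 in WT replicate 1. For Rest, 7908 and 6233 reads were counted in WT against 4244 and 3890 in Rest-/- ESCs. The log2 fold change, here and throughout Rest-/- over WT, was -0.52 with a standard error (SE) of 0.13, and edgeR's quasi-likelihood test gave an adjusted p of 0.526. Reads on Rest thus remained in the libraries labelled Rest-/-, and which exons they cover was not analysed here. Of the 8 pluripotency markers, 5 had a log2 fold change below 0, and Zfp42 had the lowest at -1.36. Summed levels of 8 fibroblast markers were 27.2 and 19.0 CPM (read counts scaled to the size of the library) in WT and 93.2 and 19.2 CPM in Rest-/- libraries, so that Rest-/- replicate 1 stood apart, while Lum was at 0 in all 4 libraries. Summed levels of 6 primitive endoderm markers were 15.1 and 19.9 CPM in WT and 44.3 and 32.8 CPM in Rest-/- libraries.

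No kinesin passed the test between the genotypes in the model without pairing of the libraries. By edgeR's quasi-likelihood test, 0 of 35 tested kinesins had an adjusted p under 0.05, against 9 of all 15444 genes tested (0.0583%). At an unadjusted p under 0.05 there were 2 kinesins, where 6.71% of all genes passed. They were Kif4, which was lower as were 2.86% of all genes at this threshold, and Kif5a, which was higher as were 3.85%. The exact test of edgeR called 0 kinesins both with tag-wise dispersion (1.51% of all genes) and with common dispersion (2.22%), and DESeq2 also called 0 (1.54%). Both Rest-/- libraries lay above both WT libraries for 5 kinesins, or 14.3%, against 16.5% of all genes. Both lay below for 3 kinesins, or 8.57%, against 15.4% of all genes. These shares were no larger than the background. With 2 libraries per genotype, the p-values measure the spread between replicate cultures of 1 line each. In bulk RNA, fewer cells that express a gene and less RNA per cell cannot be told apart.

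The mitotic kinesins were the more abundant class in both genotypes. Levels are compared between genes as CPM per kilobase of annotated exon, and values for the libraries are given throughout in the order WT replicate 1, WT replicate 2, Rest-/- replicate 1 and Rest-/- replicate 2. The median of the 12 tested mitotic kinesins was 29.4, 20.8, 25.5 and 18.8 CPM per kilobase. The median of the 17 transport kinesins was 4.57, 7.54, 7.08 and 7.63 CPM per kilobase, and that of all tested genes lay between 6.16 and 6.40. The mitotic median was thus above the transport median in each of the 4 libraries.

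**Figure D1:**
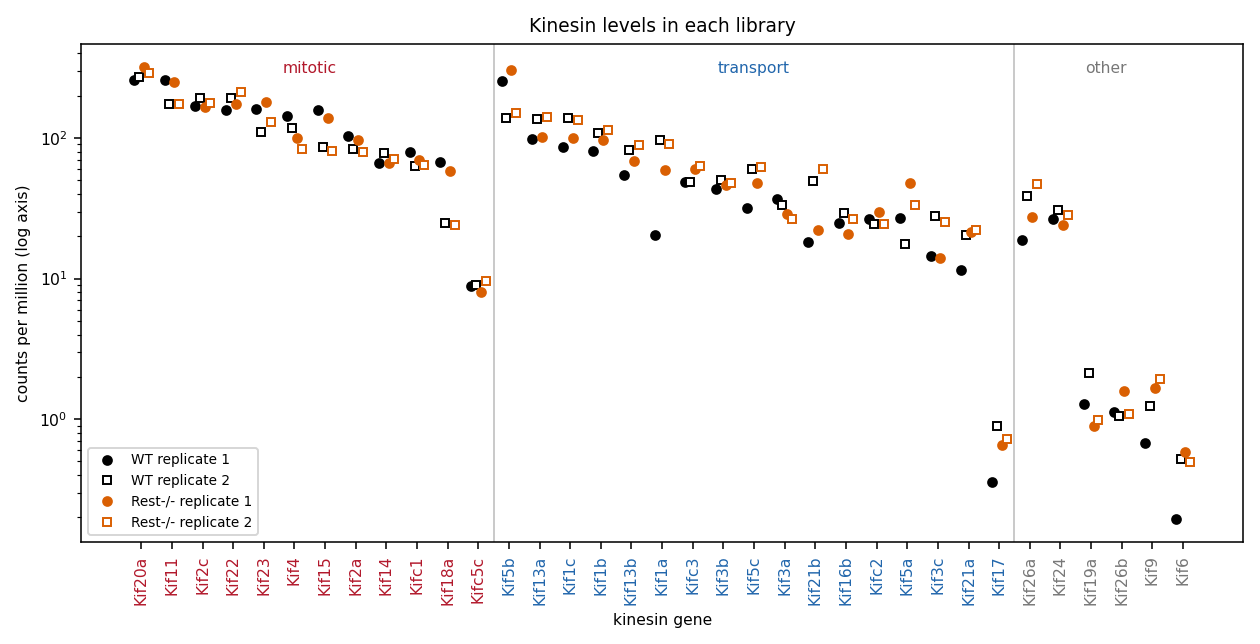
Level of each of the 35 tested kinesins in each library, in CPM on a log axis, with genes ordered by their WT mean within the mitotic, transport and other classes. Circles are replicates 1 and squares replicates 2, black for WT and orange for Rest-/-. Replicates of one genotype are often farther apart than the genotypes, as for Kif18a, Kif1a and Kif21b.

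By length, Kif22, a chromokinesin that pushes chromosome arms away from the poles, had the highest level of the family. It measured 77.2, 93.8, 85.3 and 102 CPM per kilobase. Kif20a, which acts at the spindle midzone in cytokinesis, came next with 66.8, 70.4, 83.0 and 74.9 CPM per kilobase. Kif22 was above Kif20a in each of the 4 libraries, although their ranges over the libraries overlapped. Kif11, the motor that pushes spindle poles apart, followed with 53.7, 36.2, 52.3 and 36.4 CPM per kilobase, and its range overlapped those of Kif2c and Kif23. Kif2c, a microtubule depolymerase of the centromere, measured 38.5, 43.8, 37.6 and 40.2 CPM per kilobase, and Kif23, a midzone kinesin of the centralspindlin complex, 41.4, 28.1, 45.7 and 33.2. Kif5b, the ubiquitous conventional kinesin heavy chain, had the highest mean level of the transport class with 34.5, 18.8, 41.1 and 20.3 CPM per kilobase. By its mean it was the sole transport kinesin among the 6 highest of the family, but this rests on the replicates numbered 1. In WT replicate 2, Kif1c (19.8 CPM per kilobase) and Kif13a (19.6) were above it, and its range overlapped theirs.

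Within the mitotic class, 3 of 12 tested genes had a log2 fold change above 0 and 9 had one below 0, and none passed the test. Their median was -0.082, beside -0.0047 over all genes tested, and the range ran from -0.50 to 0.20. The lowest value belonged to Kif4 (Entrez 16571, mm9 chrX:97821076-97922553, plus strand), a chromokinesin that condenses chromosomes and bundles midzone microtubules. Kif4 measured 143, 118, 101 and 84.0 CPM. Both Rest-/- libraries were below both WT libraries, and the means were 130.5 ± 17.8 CPM in WT and 92.3 ± 11.8 CPM in Rest-/- ESCs (SD, n = 2). Its log2 fold change was -0.50 (SE 0.18), with an adjusted p of 0.732 by edgeR's quasi-likelihood test. Kif4 is X-linked, and of the 551 X-linked genes tested 466 had a log2 fold change below 0, with a median of -0.40. The part of the X chromosome in the Kif4 difference was not tested. A stretch of 684 bases of the Kif4 transcript (13.7%) is identical to the overlapping gene Pdzd11, and the sources used here do not say whether counting used strand.

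The other spindle motors had small genotype differences next to the spread of their replicates. Kif11 measured 259, 174, 252 and 175 CPM, with a log2 fold change of -0.02 (SE 0.28). The 2 replicates numbered 1 were the high ones in both genotypes, and the groups overlapped. Kif15, which assists Kif11 in spindle assembly, followed the same order with 158, 85.8, 139 and 81.5 CPM and a log2 fold change of -0.15 (SE 0.40). Kif18a, which damps chromosome movements at the metaphase plate, measured 67.0, 24.9, 58.8 and 24.2 CPM. Its replicates differed by 1.41 on the log2 scale in WT and by 1.27 in Rest-/- ESCs, against a genotype difference of -0.15 (SE 0.64). Kif23 measured 162, 110, 179 and 130 CPM, with a log2 fold change of 0.18 (SE 0.27).

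The remaining mitotic kinesins differed less between replicates. Kif2c measured 169, 192, 165 and 177 CPM, and Kif22 measured 159, 194, 176 and 211 CPM, both with overlapping groups. Their log2 fold changes were -0.081 (SE 0.14) for Kif2c and 0.13 (SE 0.17) for Kif22. Kif20a measured 260, 274, 323 and 292 CPM and was the 1 mitotic kinesin with both Rest-/- libraries above both WT libraries, at a log2 fold change of 0.20 (SE 0.13). Part of the Kif20a transcript, 967 bases or 27.1%, is identical to the overlapping gene Cdc23. Kif2a, a depolymerase that also acts in neurons, Kif14, a cytokinesis motor, and the row named Kifc1, a minus-end motor that focuses spindle poles, had log2 fold changes of -0.082, -0.093 and -0.096. Kifc5c, a row that RefSeq names as a pseudogene, had 8.09 to 9.66 CPM and a log2 fold change of -0.02.

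Within the transport class, 14 of 17 genes had a log2 fold change above 0 and 3 had one below 0, where 49.2% of all tested genes were above 0. None of the 17 passed the test, their median was 0.15, and the range ran from -0.35 to 0.86. With each library left out in turn, the median ran from -0.12 (without WT replicate 1) to 0.44 (without WT replicate 2). Its sign, and with it the count above 0, thus depended on single libraries. Summed over the class, the levels were 881, 1068, 1070 and 1114 CPM, lowest in WT replicate 1. Kif5b held 255, 139, 304 and 150 CPM of these sums and was high in the replicates numbered 1. In contrast, 12 of the 17 genes were higher in replicate 2 of both genotypes, so the sums do not show the order of most of the class. Summed levels of 8 neuron markers were 241, 261, 331 and 363 CPM, and the 7 markers tested had a median of 0.55 in log2 fold change. Elavl3 (21.0 ± 1.83 CPM in WT and 66.6 ± 0.810 CPM in Rest-/- ESCs, SD, n = 2) and Nefl (28.4 ± 3.15 and 69.7 ± 10.2 CPM) made up most of the difference in the sum, Tubb3 and Map2 had log2 fold changes of 0.012 and 0.021, and Dcx had at most 8 counts in any library. Their part in the transport values was not tested.

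**Figure D2:**
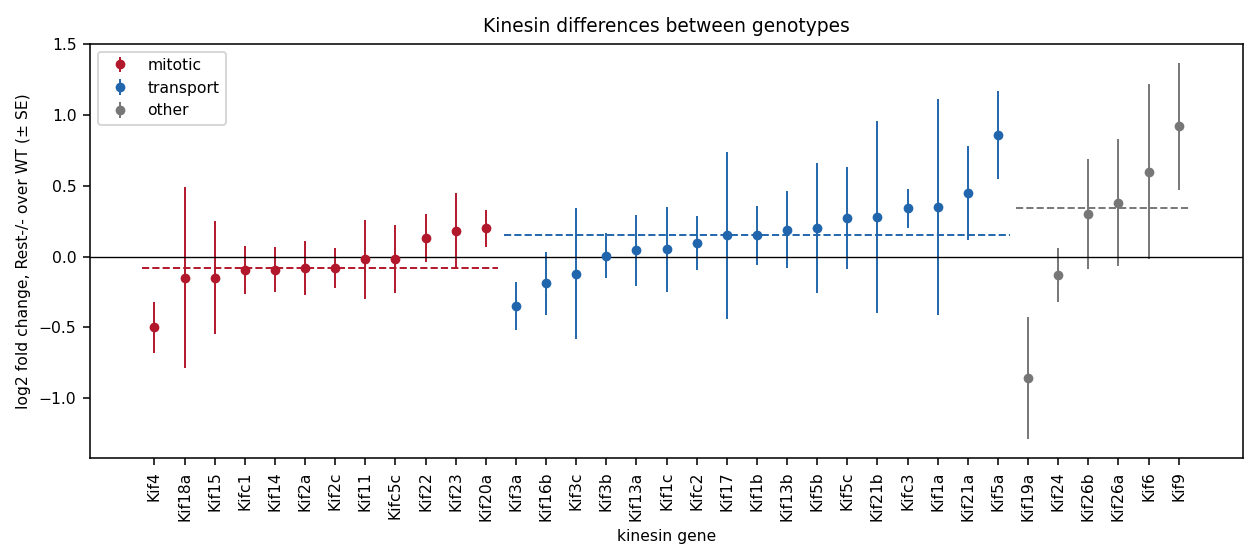
Log2 fold change of Rest-/- over WT for the 35 tested kinesins, sorted within each class, with error bars of 1 SE from edgeR's quasi-likelihood fit and dashed lines at the class medians (mitotic -0.082, transport 0.15, other 0.34). Kif5a has the highest value of the transport class at 0.86 and Kif4 the lowest of the mitotic class at -0.50.

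The conventional kinesin heavy chains, which pair with light chains to carry vesicles and mitochondria, were led by Kif5a in their genotype difference. Kif5a (Entrez 16572, mm9 chr10:126662755-126700136, minus strand), the form concentrated in neurons, measured 27.0, 17.6, 47.6 and 33.4 CPM. Both Rest-/- libraries were above both WT libraries, and the means were 22.3 ± 6.66 CPM in WT and 40.5 ± 10.04 CPM in Rest-/- ESCs (SD, n = 2). Its log2 fold change was 0.86 (SE 0.31), with an adjusted p of 0.732 by edgeR's quasi-likelihood test. Rest-/- exceeded WT by 0.81 on the log2 scale between the replicates numbered 1 and 0.90 between those numbered 2. Kif9, outside the transport class and at low counts, had 0.88 and 0.50 in these comparisons and a log2 fold change of 0.92. Kif5b measured 255, 139, 304 and 150 CPM, with the replicates numbered 1 high in both genotypes and a log2 fold change of 0.20 (SE 0.46). Kif5c, the other form enriched in neurons, measured 31.7, 59.8, 47.7 and 62.4 CPM. Its WT replicate 1 was low, the groups overlapped, and the log2 fold change was 0.27 (SE 0.36).

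The Kif1 motors, which carry synaptic vesicle precursors, mitochondria and Golgi-derived vesicles, depended on single libraries. Kif1a (Entrez 16560, mm9 chr1:94912033-94998442, minus strand), the axonal carrier of synaptic vesicle precursors, measured 20.3, 97.6, 58.8 and 91.4 CPM. Its lowest and its highest library were both WT, with replicate 1 minus replicate 2 at -2.24 on the log2 scale, and its log2 fold change was 0.35 (SE 0.76). Without WT replicate 2 the log2 fold change of Kif1a was 1.89 with an adjusted p under the threshold, in a fit where the lone WT library is assumed to vary like the Rest-/- pair, and without WT replicate 1 it was -0.38. Kif1b measured 80.5, 109, 97.0 and 114 CPM, and Kif1c measured 86.8, 140, 99.8 and 134.8 CPM. Both were higher in the replicates numbered 2 and overlapped between genotypes, with log2 fold changes of 0.15 (SE 0.21) and 0.052 (SE 0.30). Among their relatives in endosomal and vesicle transport, Kif13a, Kif13b and Kif16b had log2 fold changes of 0.045, 0.19 and -0.19. Kif16b, an early endosome motor, measured 24.8, 29.3, 20.7 and 26.7 CPM, with overlapping groups.

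Among the motor subunits of the heterotrimeric kinesin that moves cargo into cilia and along axons, Kif3a was lower in both Rest-/- libraries and Kif3b overlapped between genotypes. Kif3a measured 36.9, 33.5, 28.8 and 26.6 CPM, with both Rest-/- libraries below both WT libraries. Its log2 fold change was -0.35 (SE 0.17), with an adjusted p of 0.888 by edgeR's quasi-likelihood test. Kif3b measured 43.6, 50.6, 46.7 and 47.9 CPM, with a log2 fold change of 0.0058 (SE 0.16). Kifap3, a subunit counted among the partners below and added after its values were seen, measured 69.7, 73.0, 86.2 and 79.9 CPM. Both of its Rest-/- libraries were above both WT libraries, at a log2 fold change of 0.22 (SE 0.14). Kif3c, the alternative partner of Kif3a, measured 14.4, 28.1, 14.1 and 25.2 CPM, high in the replicates numbered 2 of both genotypes. Its log2 fold change was -0.12 (SE 0.46), and 1187 bases of its transcript are identical to the overlapping gene 1110002L01Rik. Kif17, a dendritic and ciliary motor, had no more than 24 counts in any library and a log2 fold change of 0.15 (SE 0.59).

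The last transport motors were Kif21a, Kif21b, Kifc2 and Kifc3. Kif21a, a motor that also restrains microtubule growth, measured 11.5, 20.4, 21.5 and 22.2 CPM. Both Rest-/- libraries were above both WT libraries, but the gap between WT replicate 2 and Rest-/- replicate 1 was small, and the log2 fold change was 0.45 (SE 0.33). Kifc3, a minus-end motor of epithelial junctions and Golgi positioning, measured 49.1, 49.0, 60.2 and 63.8 CPM. Its replicates lay close together, both Rest-/- libraries were higher, and the log2 fold change was 0.34 (SE 0.14), with an adjusted p of 0.802 by edgeR's quasi-likelihood test. Kifc3 lies on chromosome 8, where the median of 786 tested genes was -0.13. Kif21b, a neuronal relative of Kif21a, measured 18.4, 49.3, 22.02 and 59.9 CPM, so that its replicates differed by more than the genotypes. Kifc3 and Kif21b were chosen after their values were seen. Kifc2 had a log2 fold change of 0.098 (SE 0.19).

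The contrast of the classes varied with the libraries compared. The median log2 fold change of the mitotic kinesins minus that of the transport kinesins was -0.23. Between the replicates numbered 1 it was -0.33, and between those numbered 2 it was -0.062. Without WT replicate 1 the contrast turned to 0.20, and without Rest-/- replicate 2 to 0.027. Without WT replicate 2 it was -0.59, and without Rest-/- replicate 1 it was -0.37. The medians themselves changed sign, since without WT replicate 1 that of the mitotic kinesins was 0.079 and that of the transport kinesins -0.12. Leaving out 1 library also leaves the replicate numbers uneven between the genotypes, whereas both comparisons of same-numbered libraries were below 0. The contrast was not tested, and its size and sign thus depended on how the libraries were set against each other.

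**Figure D3:**
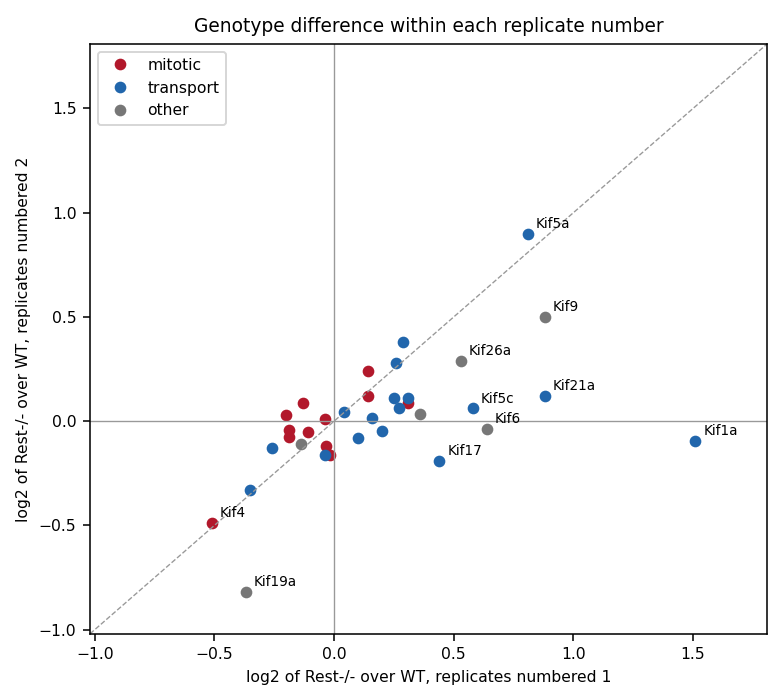
Log2 of Rest-/- over WT for each tested kinesin, from CPM + 0.5, between the replicates numbered 1 (horizontal axis) and between those numbered 2 (vertical axis), with equal values on the dashed line. Kif5a (0.81 and 0.90) and Kif4 (-0.51 and -0.49) lie near the line, while Kif1a (1.51 and -0.095) lies far from it.

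The replicate number separated the classes more than the genotype did. Replicate 1 minus replicate 2, as a difference of log2(CPM + 0.5), had a median of 0.30 in WT and 0.20 in Rest-/- ESCs over the mitotic kinesins, and of -0.46 and -0.23 over the transport kinesins. The class medians were thus 0.76 apart in WT and 0.43 apart in Rest-/- ESCs, against the -0.23 between them in the genotype difference. Replicate 1 was the higher one in both genotypes for 7 of 12 mitotic kinesins (58.3%) and 4 of 17 transport kinesins (23.5%), against 41.8% of all genes tested. Replicate 2 was the higher one in both genotypes for 4 mitotic kinesins (33.3%) and 12 transport kinesins (70.6%), against 40.7% of all genes. For 25 of 35 kinesins (71.4%) the mean replicate difference exceeded the genotype difference in size, against 60.9% of all genes. Over the kinesins the median size of the replicate difference was 0.55 in WT, beside 0.32 over all genes, but 0.27 in Rest-/- ESCs, beside 0.28 over all genes. The median size of the genotype difference was 0.18 both over the kinesins and over all genes.

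**Figure D4:**
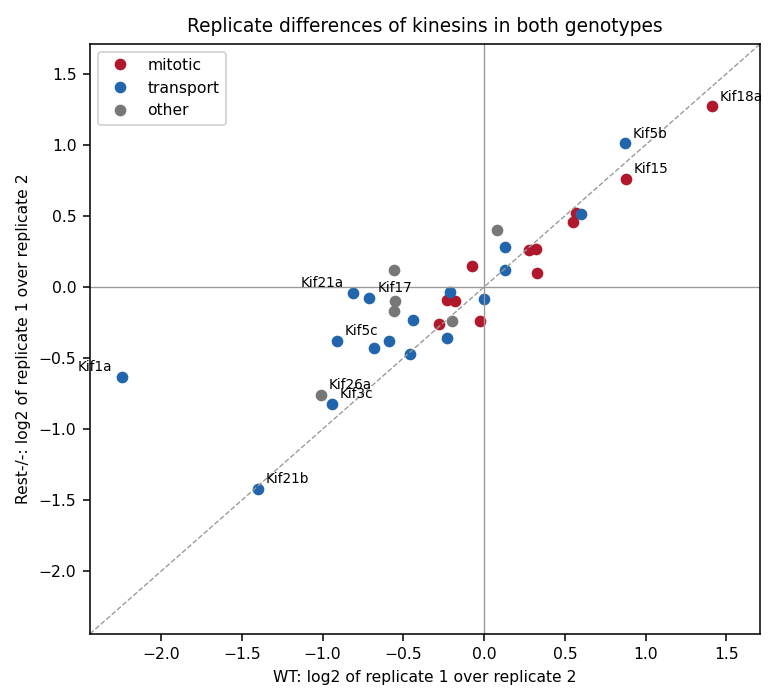
Log2 of replicate 1 over replicate 2, from CPM + 0.5, in WT (horizontal axis) and in Rest-/- ESCs (vertical axis) for each tested kinesin, with equal values on the dashed line. Kif18a (1.41 and 1.27) and Kif21b (-1.40 and -1.42) have like replicate differences in both genotypes, and Kif1a (-2.24 and -0.63) does not.

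The GC content of the exons moved with this replicate difference. Over the 35 kinesins, Pearson's r between exon GC content and the replicate difference was -0.54 and Spearman's rho was -0.45, beside -0.42 and -0.41 over 14549 genes. Within the classes r was -0.74 over 12 mitotic and -0.33 over 17 transport kinesins. These are correlations across genes that share the same 4 libraries, given as a description. Kif18a had the lowest GC content of the tested kinesins at 37.3% and Kif26a the highest at 61.7%. The median was 46.8% in the mitotic and 52.4% in the transport class. The genotype difference had an r of 0.14 with GC content over the 35 kinesins. The part of GC content in the class values was not tested.

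**Figure D5:**
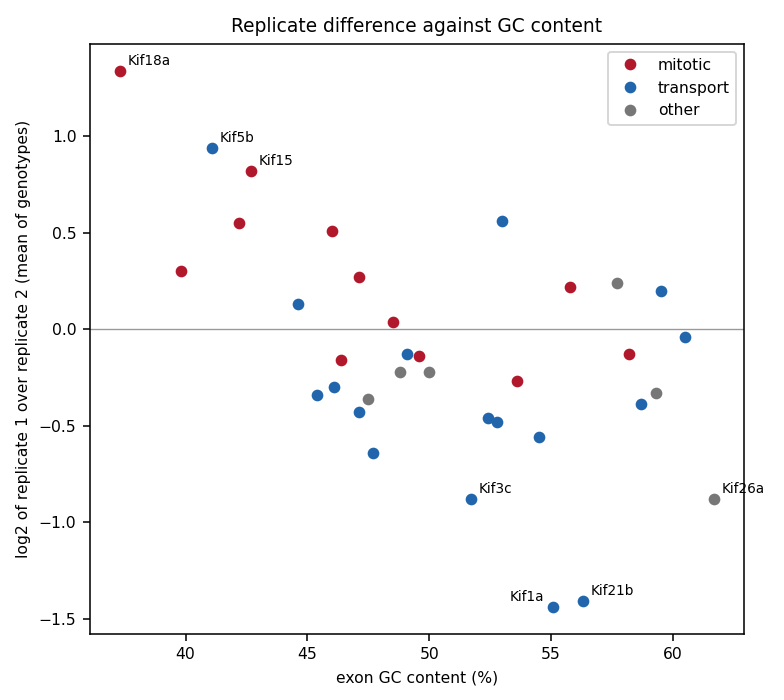
Log2 of replicate 1 over replicate 2, averaged over the genotypes, against exon GC content in percent for the 35 tested kinesins. Mitotic kinesins of low GC content such as Kif18a (37.3%) lie above 0, and most transport kinesins lie below 0.

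The 6 tested kinesins outside these classes had a median log2 fold change of 0.34, with 4 above 0 and 2 below, and none passed the test. Kif26a, a kinesin without motor activity that acts in signalling, measured 18.9, 38.5, 27.5 and 47.1 CPM. The replicates numbered 2 were the high ones, and its log2 fold change was 0.38 (SE 0.45). Kif9, a motor of motile cilia, had 21, 33, 43 and 43 counts, with both Rest-/- libraries higher and a log2 fold change of 0.92 (SE 0.45). Kif19a, a depolymerase that limits the length of cilia, had 40, 57, 23 and 22 counts, with both Rest-/- libraries lower. Its log2 fold change was -0.86 (SE 0.43), with an adjusted p of 0.906 by edgeR's quasi-likelihood test. The 2 ciliary motors thus had opposite signs. Kif6 had 6, 14, 15 and 11 counts and a log2 fold change of 0.60 (SE 0.62), with overlapping groups. Kif24, a centriolar depolymerase, and Kif26b had log2 fold changes of -0.13 and 0.30. Summed levels of 5 markers of ciliated cells were 29.1, 24.3, 30.5 and 29.9 CPM. Foxj1 made up most of these sums and was higher in both Rest-/- libraries (means 15.2 CPM in WT and 21.3 CPM in Rest-/- ESCs). The means of Rsph1, Dnaic1, Ccdc39 and Dnah5 were lower in Rest-/- ESCs.

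Kif2b, Kif12 and Kif27 were not tested. Kif2b, a relative of Kif2c, was listed at 0 in all 4 libraries, and Kif12 had at most 2 counts. Kif27 was also listed at 0, but within a run of 22 successive genes at 0 in every library that includes Hnrnpk, a gene used in all cells, so that its 0 is not a measurement of its level. The row named Kifc1 carries the identifier that RefSeq gives to Kifc5b, whose transcript is 96.8% identical to that of Kifc1 over 2312 bases, and reads of the 2 genes may have been split between them. The Kif2a transcript shares 1229 bases with the overlapping gene Dimt1.

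The partners of the transport kinesins were not uniform. Of 19 partners (light chains, cargo adaptors and regulators), 11 had a log2 fold change above 0 and 8 below, with a median of 0.10, and 0 passed edgeR's quasi-likelihood test, with 2 (Mapk8ip2 and Madd) at an unadjusted p under 0.05, where 6.71% of all genes passed. Mapk8ip2, a scaffold that ties conventional kinesin to its cargo, measured 9.17, 19.6, 35.5 and 59.2 CPM. Both Rest-/- libraries were above both WT libraries, and the log2 fold change was 1.72 (SE 0.47), with an adjusted p of 0.604. Madd, an adaptor of Kif1a and Kif1b, measured 29.9, 25.1, 67.8 and 81.5 CPM. Its Rest-/- libraries were also both higher, and the log2 fold change was 1.44 (SE 0.19), with an adjusted p of 0.166. These differences were larger than that of any kinesin.

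Of 18 mitotic partners (chromosomal passenger, checkpoint and spindle proteins), 8 were above 0 and 10 below, with a median of -0.031. None passed the test, and 0 had an unadjusted p under 0.05. The largest were Nusap1, a spindle microtubule bundler, at -0.28 (SE 0.30) and Aurkb, the passenger complex kinase, at 0.20 (SE 0.13). Of 14 subunits and regulators of cytoplasmic dynein, the motor that moves opposite to most kinesins, 6 were above 0 and 8 below, with a median of -0.0056. None of these passed either threshold, and the largest were Dynlt3 at -0.67 (SE 0.48) and Ndel1 at -0.29 (SE 0.14).

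REST binds the RE1 element, which was searched on both strands of mm9 as a 15-base motif with 12 informative positions (CAGNACC, any 2 bases, then GGACAG). A match to all 12 positions within 20 kb of an annotated start site was found for 0 of 38 kinesins, against 4.41% of the tested genes with a position. Extended to the whole gene with 20 kb flanks, it was again 0 of 38, against 6.46%. A match to 11 or more positions within 20 kb was found for 22 of the 35 tested kinesins (62.9%), against 44.2% of tested genes, and within 1 kb for 2 of 35 (5.71%), against 6.18%. The 2 within 1 kb belong to Kif3c and Kif2c. They are shown with a full match near a kinesin partner, the light chain Klc1, and capitals mark the informative positions that match.
Kif3c (chr12:3387279-3387293, plus strand): CAGgAtCcaGGACAG
Kif2c (chr4:116837786-116837800, plus strand): CAGcACCtgGGtCAG
Klc1 (chr12:112995110-112995124, minus strand): CAGgACCatGGACAG
The Kif3c match is intronic and lies at -95 from the nearest start site, the Kif2c match is exonic at 222, and the Klc1 match lies upstream of the gene at -1943. For Kif3c and Kif2c this is a start site inside the gene and not its outermost one. By annotation Kif3c begins at position 3365132 (plus strand) and Kif2c at 116855244 (minus strand). Kif3c and Kif2c had log2 fold changes of -0.12 and -0.081, as given above, and Klc1, which was chosen after its values were seen, had 0.25 (SE 0.19). A match of letters is no evidence that REST bound there, and binding was not analysed here.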

How the data were processed

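Total RNA of WT and Rest-/- ESCs was sequenced in 4 libraries. The authors made TruSeq libraries, aligned the reads with Subread and counted them per gene with featureCounts (mm9, per the submitters' processing notes), and the deposited values are raw counts. Strand use in counting is not given in the sources used here. Rows without an identifier (368) held no values and were left out. Counts were compared in R 4.3.3 with edgeR 4.0.16 (TMM, filterByExpr, quasi-likelihood test, no block, Benjamini-Hochberg adjustment over all 15444 genes tested, threshold 0.05), and SE was taken from the F statistic. DESeq2 1.42.0, other scalings, filters and tests, and each library left out were alternatives. Single libraries were compared as log2(CPM + 0.5), and CPM was scaled by TMM. On simulated counts with 200 of 15444 genes changed by 2 on the log2 scale in this comparison, 100% were recovered, with 3.85% false among 208 calls. The log2 fold changes of the tested kinesins ran from -0.86 to 0.92, and the recovery of changes of that size was not tested. Exon lengths, GC content and the RE1 search used NCBIM37 (mm9) with GENCODE M1, promoters came from RefSeq GRCm38.p6, and copies were found with BLAST+ 2.17.0 (at least 90% identity over 200 bases).

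The members and the lists were chosen with earlier results of these data known. Values in every library are given for the 6 tested kinesins with the highest and the 6 with the lowest log2 fold change, the 6 highest per length, the Kif1, Kif3 and Kif5 genes, X-linked members, and the 2 partners of transport kinesins with the largest difference. For the 2 such genes of the mitotic partners and of dynein the log2 fold change alone is given.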

Additional observations from a re-analysis of the deposited data

How the results depend on the processing

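Each library held at least 22293966 counts on genes, and depth limits above all Kif6, Kif9, Kif17, Kif19a and Kif26b, the tested kinesins that had at most 57 counts in any library. The count of 9 genes called among all tested became 53 with no filter on low counts, 3 with at least 10 counts in every library, 233 and 343 with edgeR's exact test at tag-wise and common dispersion, 238 with DESeq2, and 60 to 113 with each library left out in turn. The count of kinesins called stayed at 0 under each of these except the last, where it was 0 to 1 (Kif1a without WT replicate 2, where the lone WT library is assumed to vary like the Rest-/- pair). With the replicate number as a block, 2621 genes were called (17.0%), among them 5 kinesins, Kif4 and Kif3a lower and Kifc3, Kif26a and Kif5a higher. The replicate differences of WT and Rest-/- had a correlation of 0.818 across 13797 genes, but with 2 pairs and no label that links libraries of the same number, the values given above are those without the block. The cause of these changes was not tested.

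With each library left out in turn, the median log2 fold change ran from -0.15 to 0.079 for the mitotic and from -0.12 to 0.44 for the transport kinesins, and their difference from -0.59 to 0.20. With the replicate block the difference was -0.26. The other scalings, filters, tests and class memberships moved these medians by less than the spread between replicates, including 2 alternatives chosen after seeing the data (without the pseudogene Kifc5c, and with Kif18b, Kif20b and Kifc1, which are listed under other names). RE1 matches within 20 kb went from 0 to 23 kinesins with 11 or more positions.

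The log2 fold change of Kif3b was -0.0015 with RLE scaling, -0.0038 with no filter and -0.0015 with DESeq2. With each library left out in turn it changed sign for Kif18a (-0.92 to 0.73), Kif15 (-0.58 to 0.35), Kif1a (-0.38 to 1.89), Kif26a (-0.067 to 0.98), Kif5b (-0.39 to 0.70), Kif23 (-0.068 to 0.48), Kif2c (-0.18 to 0.015), Kif11 (-0.30 to 0.29), Kif22 (-0.0083 to 0.28), Kif1b (-0.056 to 0.39), Kif1c (-0.25 to 0.44), Kif3b (-0.10 to 0.12), Kif3c (-0.60 to 0.44) and Kif5c (-0.12 to 0.80). Among the named kinesins it kept its sign for Kif5a (0.58 to 1.20), Kif4 (-0.63 to -0.36), Kif3a (-0.41 to -0.28), Kif16b (-0.39 to -0.013), Kif19a (-1.18 to -0.45), Kif6 (0.039 to 1.46), Kif9 (0.54 to 1.40), Kif20a (0.13 to 0.27) and Kif21a (0.09 to 0.93), of which Kif16b, Kif6 and Kif21a came close to 0.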

Other observations

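Several kinesin genes stand in the table under an older symbol or none and were not taken by their symbol. Their values were looked at after those of the family. Kif20b, a cytokinesis motor, had 225, 62.8, 213 and 66.2 CPM in WT replicates 1 and 2 and Rest-/- replicates 1 and 2, the widest gap between replicates among these genes (1.83 on the log2 scale in WT and 1.68 in Rest-/- ESCs), at a log2 fold change of -0.044 (SE 0.81). Kif18b, a relative of Kif18a, had 146, 125, 141 and 118 CPM and a log2 fold change of -0.064 (SE 0.17). The identifier that RefSeq names Kifc1 had 148, 140, 141 and 154 CPM and a log2 fold change of 0.037 (SE 0.13). Kif7, a ciliary regulator of hedgehog signalling, had 22.4, 25.8, 29.3 and 33.0 CPM, with both Rest-/- libraries above both WT libraries, a log2 fold change of 0.37 (SE 0.18) and an adjusted p of 0.905 by edgeR's quasi-likelihood test. The Kif4 pseudogene Kif4-ps had 30, 26, 19 and 13 counts and a log2 fold change of -0.55 (SE 0.39). Mapk8ip1, the paralog of Mapk8ip2, had 38.7, 67.1, 79.8 and 107 CPM and a log2 fold change of 0.82 (SE 0.33), with an adjusted p of 0.777 by the same test.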
